A study of Mus musculus with 6 samples.

Results

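The 8 genes described here are known from muscle cells under mechanical load: Abra, Srf, Ankrd1, Ankrd2, Rcan1, Tnfrsf12a, Fhl1 and Uchl1. They were chosen by name, with group differences of these arrays already known, and every probe set with one of these single gene symbols in the platform annotation was taken, 13 probe sets of 45101 on the array. The probe set with the highest mean over the 6 arrays stands for each gene, so that mean level was used in the choice and is no result. Of the 8 genes, 7 had a mean level above the filter on dim genes and were tested among 11254 tested genes of 18193 with a single symbol. The gene below the filter was Ankrd2. The label of a mechanical stress set was met unevenly, since Ankrd2 gave signals under the filter level of 50.2 on all 6 arrays and Uchl1 on 1 control and 1 GRK-Inh array.

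RNA of whole heart from male mice aged 2 months was measured on 6 Affymetrix arrays, 2 per group, for 3 groups. Hearts labelled RKIP-transgenic came from mice with an added gene for RKIP, a protein that inhibits the kinase RAF and the kinases of G-protein-coupled receptors (GRKs), driven by the alpha-MHC promoter, which is active in heart muscle cells. GRK-Inh-transgenic mice made a peptide inhibitor of GRKs in the myocardium, with no promoter named, and the third group was wild-type B6 control mice. All 3 groups share a B6 strain background. The labels name no founder lines or littermates, nor whether the 2 arrays of a group stand for different animals, so p-values reflect the spread between these arrays alone, which may be technical. Pebp1, the mouse gene of RKIP, had mean signals of 9121, 9187 and 9029 in RKIP-transgenic, GRK-Inh-transgenic and control hearts and passed in no comparison (adjusted p 0.737 to 0.916), which is no test of a transgene that the probes may not see. All 8 heart muscle markers, Myh6 and Tnnt2 among them, were above the filter, with summed signals of 217700 to 218830, 212460 to 213670 and 218530 to 226020 in the same order. Of these markers 0 rose and 1 fell in RKIP against control hearts, Actc1 (-0.12 ± 0.031, adjusted p = 0.0326), and 0 were called by limma in GRK-Inh hearts, with 2 lower at an unadjusted p under 0.05. For the actin control, 3' signal divided by 5' signal was 2.92 to 3.03 on the transgenic arrays and 3.11 to 3.25 on the control arrays. For the Gapdh control this ratio was 0.955 to 1.02 and 1.03 to 1.08 in the same order. The part of these ratios in the results was not tested.

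Heart muscle cells sense stretch at the Z-disc, at the titin spring and through the actin filaments. When actin polymerises, MRTF cofactors are set free, enter the nucleus and switch on genes with serum response factor (SRF), which binds a DNA element called the CArG box. Calcineurin, a calcium-dependent phosphatase, acts beside this route through NFAT factors. Abra, also called STARS, binds actin and promotes the MRTF route, and Srf encodes the factor itself. Ankrd1 and Ankrd2 encode ankyrin repeat proteins that bind titin and also enter the nucleus, Fhl1 encodes a LIM protein at the titin spring, Rcan1 a regulator of calcineurin, Tnfrsf12a the receptor (Fn14) of the cytokine TWEAK, and Uchl1 a ubiquitin hydrolase best known from neurons.

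The stretches before the gene starts are shown because SRF, TEAD and NFAT factors are textbook regulators of some of these genes. RefSeq windows (GRCm38.p6) of 250 bases upstream were at hand for 7 of the 8 genes, 9 windows in all. Abra had no window, so the stretch before its start was not searched. Both strands were searched for the CArG box, for CATTCC (the TEAD element), for GGAAA (the NFAT core) and for TGANTCA (the AP-1 element). Capitals mark CArG boxes in Srf and Fhl1, the TEAD element on the other strand in Ankrd1, and the NFAT core on either strand in Rcan1.
Srf, chr17:46556163-46556412, minus strand: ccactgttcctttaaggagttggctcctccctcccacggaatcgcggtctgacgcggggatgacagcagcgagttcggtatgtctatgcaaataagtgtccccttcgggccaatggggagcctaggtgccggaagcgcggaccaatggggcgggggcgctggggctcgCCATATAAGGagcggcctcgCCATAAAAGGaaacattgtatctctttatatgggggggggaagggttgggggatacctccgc
Fhl1, chrX:56779433-56779682, plus strand: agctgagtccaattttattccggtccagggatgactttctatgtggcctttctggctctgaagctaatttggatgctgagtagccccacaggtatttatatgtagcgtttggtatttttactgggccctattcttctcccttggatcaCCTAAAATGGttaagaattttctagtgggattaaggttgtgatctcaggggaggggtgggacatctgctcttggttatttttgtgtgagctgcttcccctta
Ankrd1, chr19:36119845-36120094, minus strand: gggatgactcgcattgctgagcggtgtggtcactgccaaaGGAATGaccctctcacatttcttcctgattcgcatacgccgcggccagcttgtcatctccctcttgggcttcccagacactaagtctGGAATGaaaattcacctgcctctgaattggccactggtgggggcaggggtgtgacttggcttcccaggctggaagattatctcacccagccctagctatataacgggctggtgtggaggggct
Rcan1, downstream start, chr16:92400079-92400328, minus strand: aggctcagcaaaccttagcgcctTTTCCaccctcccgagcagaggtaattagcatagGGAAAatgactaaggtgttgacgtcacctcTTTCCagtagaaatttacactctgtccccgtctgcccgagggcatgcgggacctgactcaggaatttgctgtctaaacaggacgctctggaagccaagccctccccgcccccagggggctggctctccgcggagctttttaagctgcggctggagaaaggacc
The Srf window held 2 CArG boxes, beginning 82 and 62 bases before the start. One of the Fhl1 windows held 1, beginning 102 bases before that start. Over all 32851 windows of this length, 1.47% held a CArG box and 0.0183% held at least 2. The Ankrd1 window held 2 TEAD elements, beginning 210 and 123 bases before the start, against 12.6% of all windows with any and 1.02% with at least 2. At the downstream start of Rcan1 there were 3 NFAT cores and, beginning 110 bases before the start, 1 AP-1 element, while the upstream start of this gene held none of the 4 motifs. The NFAT core is common, with at least 1 in 55.6% and at least 3 in 6.39% of all windows, and the AP-1 element was found in 6.75%. The Ankrd2 window also held none of the 4 motifs. Tnfrsf12a, Uchl1 and the other Fhl1 window held 1 NFAT core each, and the Srf window 1 that shares bases with a CArG box. These matches are letters in a window, not measured binding sites.

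**Figure D1:**
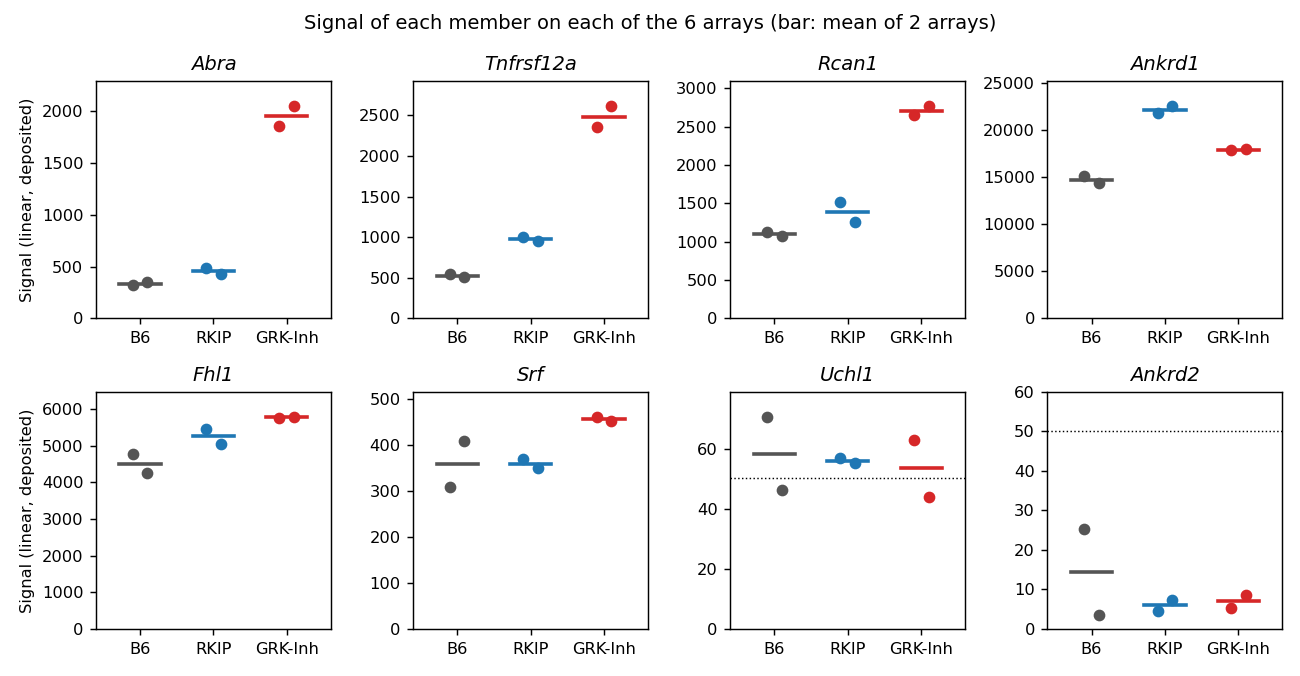
Deposited linear signal (y axis, from 0) of the main probe set of each gene on each array. Points are arrays, bars are means of 2 arrays, and the dotted line is the filter level of 50.2. Abra, Tnfrsf12a and Rcan1 were highest on both GRK-Inh arrays, Ankrd1 was highest on both RKIP arrays, and Ankrd2 stayed under the filter level.

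Abra and Srf belong to the actin route. The Abra signal was 318 and 349 on the control arrays, 483 and 427 on the RKIP arrays, and 1856 and 2049 on the GRK-Inh arrays. The 3 groups did not overlap, and the GRK-Inh arrays stood far above the rest. The mean in GRK-Inh hearts was 5.85-fold that of control hearts (1952 ± 136 against 334 ± 21.4, mean signal ± SD, n = 2 per group). On the log2 scale of the signal plus 50, which understates the change of dim genes, Abra rose by 2.38 ± 0.092 (± SE, limma, Benjamini-Hochberg adjusted p = 8.3e-08). This was the 4th largest rise of the 11254 genes tested. In RKIP hearts Abra rose by 0.40 ± 0.092 (adjusted p = 0.0195). That call was lost without RKIP array 1 (adjusted p = 0.126), without control array 1 (0.116), without control array 2 (0.0511), with no trend in the variance model and when each probe set was tested singly. The direct difference between the lines was -1.99 ± 0.092, RKIP minus GRK-Inh (adjusted p = 4.9e-07).

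Srf itself moved little beside Abra. Its signal was 308 and 408 on the control arrays, 369 and 350.0 on the RKIP arrays, and 461 and 451 on the GRK-Inh arrays. The control arrays lay further apart from each other than the RKIP arrays did and enclosed both of them. The GRK-Inh arrays were above all others. The difference from control was 0.32 ± 0.12 in GRK-Inh hearts (95% interval 0.053 to 0.59, adjusted p = 0.110) and 0.016 ± 0.12 in RKIP hearts (-0.25 to 0.29, adjusted p = 0.958), and neither passed. Without control array 2, the brighter one, the GRK-Inh difference was 0.50 and passed (adjusted p = 0.0359). The other Srf probe set gave 175 and 223 in control, 207 and 231 in RKIP and 241 and 227 in GRK-Inh hearts, with a GRK-Inh difference of 0.19. The transcription factor gene with the 2 CArG boxes in its own promoter window had no called change in the fit over all 6 arrays.

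Ankrd1, Ankrd2 and Fhl1 encode proteins tied to titin. Ankrd1 gave signals of 15079.8 and 14311 on the control arrays, 21793 and 22465 on the RKIP arrays, and 17855 and 17928 on the GRK-Inh arrays. Its order of groups differed from that of Abra, with RKIP hearts highest and control hearts lowest, and no overlap between any of them. The mean in RKIP hearts was 1.51-fold that of control (22129 ± 475 against 14696 ± 543), a rise of 0.59 ± 0.037 on the log2 scale (adjusted p = 3.8e-06). In GRK-Inh hearts it rose by 0.28 ± 0.037 (adjusted p = 0.000549). The difference between the lines, RKIP minus GRK-Inh, was 0.31 ± 0.037 (adjusted p = 0.000575). With no variance trend the GRK-Inh call and the call between the lines were lost (adjusted p 0.0742 and 0.0885). Signals of this gene were below the highest signals of the arrays, 37546 to 41679, and whether such bright probe sets understate a change was not tested.

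The second Ankrd1 probe set gave the same order. Its signals were 11877 and 12134 in control, 19998 and 19634 in RKIP, and 15096 and 15227 in GRK-Inh hearts. Put in place of the main probe set, it gave a rise of 0.72 in RKIP hearts (adjusted p = 5.6e-07) and of 0.34 in GRK-Inh hearts (adjusted p = 9.6e-05). Both probe sets read the same RNA on the same arrays, so they check the probes and not the animals.

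Ankrd2, the skeletal muscle relative of Ankrd1, was dim in every group. Its single probe set gave 25.2 and 3.62 on the control arrays, 4.66 and 7.32 on the RKIP arrays, and 5.39 and 8.48 on the GRK-Inh arrays. All 6 values were under the filter level of 50.2, and a change at such signals was not measurable here. Of 10 skeletal muscle markers, 2 were above the filter, Tnni2 and Mylpf, and neither was called by limma in any comparison, with 0 and 1 at an unadjusted p under 0.05 in RKIP and GRK-Inh against control hearts. The summed marker signal was 366 to 461 in control, 320 to 437 in RKIP and 229 to 258 in GRK-Inh hearts. The third gene of the ankyrin family, Ankrd23, was measurable and had mean signals of 564 ± 26.3 in control, 916 ± 77.1 in RKIP and 1135 ± 44.1 in GRK-Inh hearts. It rose by 0.65 ± 0.082 in RKIP hearts (adjusted p = 0.00063) and by 0.95 ± 0.082 in GRK-Inh hearts (adjusted p = 3.5e-05).

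Fhl1 changed by small amounts in both lines. Its signal was 4763 and 4259.8 on the control arrays, 5472 and 5042 on the RKIP arrays, and 5768 and 5782 on the GRK-Inh arrays. Both transgenic groups lay above the control arrays, and the GRK-Inh arrays lay above the RKIP arrays. In GRK-Inh hearts Fhl1 rose by 0.35 ± 0.059 (adjusted p = 0.00263), which did not pass once the variance trend was dropped (adjusted p = 0.0748). In RKIP hearts the rise was 0.22 ± 0.059 (adjusted p = 0.0396). That call was lost without RKIP array 1 (adjusted p = 0.228), without control array 2 (0.224), and under 4 of the other settings, and the difference was 0.14 without control array 2. The difference between the lines did not pass (-0.14 ± 0.059, RKIP minus GRK-Inh, 95% interval -0.27 to -0.0044, adjusted p = 0.201). The second Fhl1 probe set was dim, at 3.87 to 34.1 over the 6 arrays. Fhl2, the other LIM protein gene of this family above the filter, fell in RKIP hearts from 25237 to 19959 (-0.34 ± 0.057, adjusted p = 0.00386) and had a difference of -0.18 in GRK-Inh hearts that did not pass (adjusted p = 0.0699). Fhl3, Fhl4 and Fhl5 were below the filter.

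Rcan1 and Tnfrsf12a belong to calcineurin and cytokine signalling. The Rcan1 signal was 1121 and 1071.5 on the control arrays, 1519 and 1253 on the RKIP arrays, and 2649.6 and 2763 on the GRK-Inh arrays. The groups did not overlap, and the RKIP arrays were nearer to the control arrays than to the GRK-Inh arrays. In GRK-Inh hearts Rcan1 was 2.47-fold the control mean (1.27 ± 0.083 on the log2 scale, adjusted p = 4.6e-06), the 23rd largest rise of all genes tested. In RKIP hearts the rise was 0.32 ± 0.083 (adjusted p = 0.0336). That call was lost without RKIP array 1, which was the brighter (difference 0.19, adjusted p = 0.215), without control array 1 (0.101), without control array 2 (0.171), and under 5 other settings. RKIP minus GRK-Inh was -0.95 ± 0.083 (adjusted p = 5.9e-05). The other Rcan1 probe set gave 179 and 153 in control, 206 and 238 in RKIP, and 447 and 443 in GRK-Inh hearts. In place of the main one it gave a GRK-Inh rise of 1.20 (adjusted p = 0.000101) and an RKIP difference of 0.33 that did not pass (adjusted p = 0.114). The annotation does not say which of the 2 gene starts these probe sets read, so the signal cannot be assigned to the start with the NFAT cores.

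Tnfrsf12a rose in both lines. Its signal was 547 and 503 on the control arrays, 1001 and 955 on the RKIP arrays, and 2363 and 2611 on the GRK-Inh arrays. Control, RKIP and GRK-Inh arrays formed 3 separate levels. In GRK-Inh hearts the mean was 4.73-fold that of control (2487 ± 176 against 525 ± 31.0), a rise of 2.14 ± 0.076 on the log2 scale (adjusted p = 4.8e-08) and the 5th largest of all genes tested. In RKIP hearts it was 1.86-fold, a rise of 0.84 ± 0.076 (adjusted p = 6.6e-05) and the 37th largest. RKIP minus GRK-Inh was -1.30 ± 0.076 (adjusted p = 2.1e-06). The main probe set has the suffix of probe sets in which some probes also match other sequences (x_at), as has that of Ccn1, a gene given below. The main probe sets of Srf and Acta2 have another suffix (s_at). Whether these probe sets read those genes alone was not tested. The second Tnfrsf12a probe set gave 643 and 489 in control, 1043 and 1002 in RKIP, and 1608 and 2532 in GRK-Inh hearts. Its GRK-Inh arrays lay far apart, and in place of the main one it gave rises of 0.81 in RKIP (adjusted p = 0.0132) and 1.76 in GRK-Inh hearts (adjusted p = 8.4e-05).

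Fibroblasts and endothelial cells also carry the TWEAK receptor, and in whole heart RNA fewer cells of a type and less RNA per cell cannot be told apart. Of 8 fibroblast markers 0 rose and 6 fell in RKIP hearts, and 0 rose and 7 fell in GRK-Inh hearts. Their summed signal was 49337 to 52102 in control, 37034 to 37280 in RKIP and 34478 to 34932 in GRK-Inh hearts, so it was lower in the groups where Tnfrsf12a was higher. The collagen genes Col3a1 and Col1a2 lost the most signal. Their means were 12474, 6088 and 6172, and 8741, 5047 and 4823, in the same order. Tcf21 was called in neither line, and Dcn was not called in RKIP hearts. At an unadjusted p under 0.05, all 8 markers were lower in each line. Of 6 endothelial markers 0 were called higher and 2 lower in each line, with sums of 5276.1 to 5369.3, 4388.1 to 4463.7 and 4986.7 to 5039.9 in the same order. At an unadjusted p under 0.05, 0 of them were higher and 3 lower in RKIP hearts. In GRK-Inh hearts 2 were higher at that level, Pecam1 and Kdr, and 3 were lower, so this list was split. Of 6 macrophage markers 0 were called higher in either line, 1 fell in RKIP and 3 fell in GRK-Inh hearts, with sums of 7965.6 to 8264.1, 7308.3 to 7373.8 and 6269.1 to 6421.9. At an unadjusted p under 0.05, 0 were higher and 1 lower in RKIP hearts, and 1 higher and 4 lower in GRK-Inh hearts. The part of these cell types in the values of the 8 genes was not tested.

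**Figure D2:**
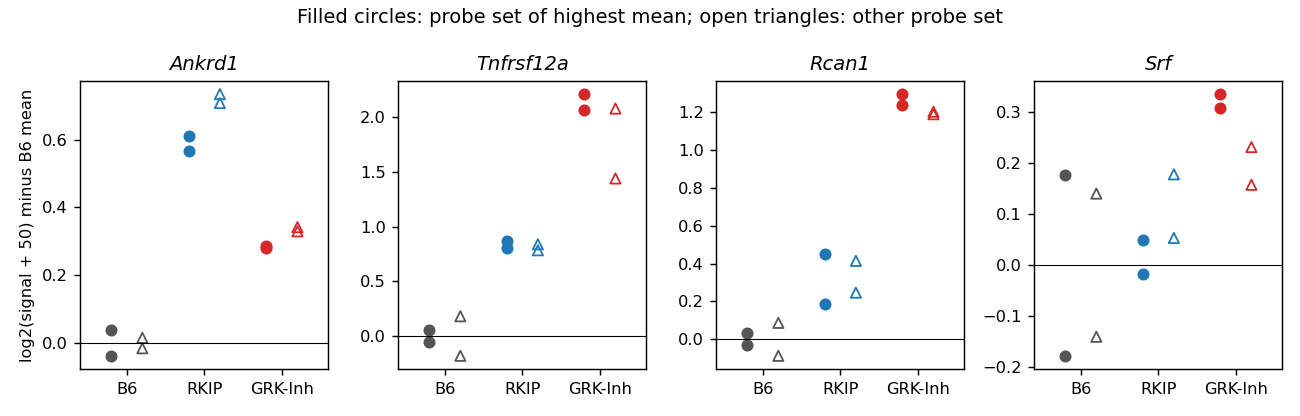
Each array's log2(signal + 50) minus the mean of the control arrays (y axis) for the 4 genes with 2 measurable probe sets, with filled circles for the main and open triangles for the other probe set. Ankrd1 is highest in RKIP hearts and Rcan1 in GRK-Inh hearts by both probe sets, and the triangles of Tnfrsf12a lie far apart in GRK-Inh hearts.

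Uchl1 gave no called difference. Its signal was 70.5 and 46.1 on the control arrays, 56.8 and 55.2 on the RKIP arrays, and 62.9 and 44.0 on the GRK-Inh arrays. The groups overlapped, and the mean level was just above the filter. The differences from control were -0.022 ± 0.20 in RKIP hearts (95% interval -0.46 to 0.42, adjusted p = 0.965) and -0.063 ± 0.20 in GRK-Inh hearts (-0.50 to 0.38, adjusted p = 0.875). Those intervals leave room for changes larger than the called ones of Fhl1. Of 11 neuron markers with a probe set, 2 were above the filter, Dbh and Stmn2, and neither was called by limma, nor had either an unadjusted p under 0.05, in any comparison. The markers' summed signal was 477 to 522 in control, 516 to 591 in RKIP and 650 to 783 in GRK-Inh hearts. Without Snap25 and Nefl, left out after their values were seen, the sums were 455 to 520, 497 to 580 and 511 to 637 in the same order, and the groups overlapped. All 4 Schwann cell markers with a probe set were tested and 0 were called by limma in any comparison (at an unadjusted p under 0.05, 1 was lower in RKIP than in control hearts and 0 differed in the other comparisons), with sums of 1982.1 to 2064.5, 1762.5 to 1856.6 and 1875 to 1890. Of the other ubiquitin hydrolase and ubiquitin genes, 7 were tested, and Uchl5 rose in RKIP hearts (0.37 ± 0.068, adjusted p = 0.00598). In GRK-Inh hearts 0 of the 7 were called by limma, 1 was higher at an unadjusted p under 0.05, and Usp2 had a difference of -0.097 (adjusted p = 0.207).

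**Figure D3:**
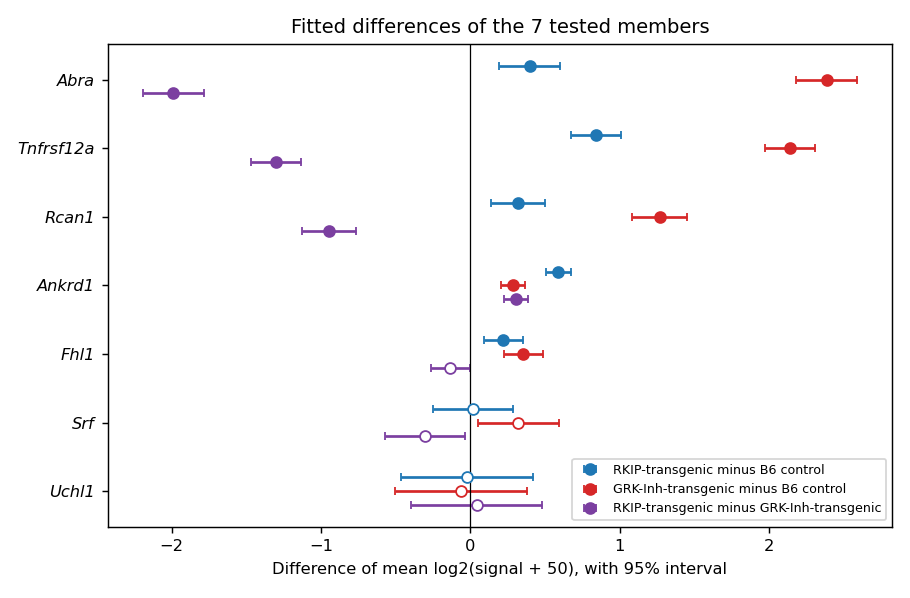
Fitted difference of mean log2(signal + 50) with its 95% interval (x axis) for the 7 tested genes in each comparison, filled where the adjusted p was under 0.05. The purple points, RKIP minus GRK-Inh, lie left of 0 for Abra, Tnfrsf12a and Rcan1 and right of 0 for Ankrd1.

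Side by side, 5 of the 7 tested genes were called higher in RKIP hearts, where 5.32% of all tested genes were called higher, and 0 were called lower (background 5.51%). In GRK-Inh hearts 5 were called higher (background 5.86%) and 0 lower (7.27%). Arrays of the compared groups did not overlap for 5 genes higher in RKIP hearts (24.2% of all tested genes; 0 lower, 29.2%) and for 6 higher in GRK-Inh hearts (23.8%; 0 lower, 33.1%), Srf being the added one. The called genes were the same 5 in both, Abra, Ankrd1, Rcan1, Tnfrsf12a and Fhl1, and both comparisons share the control arrays. Between the lines, 1 was called higher in RKIP hearts (background 4.47%) and 3 were called lower (4.35%), with arrays apart for 1 higher (29.7%) and 5 lower (23.2%). The median difference over the 7 genes was 0.32 in RKIP and 0.35 in GRK-Inh hearts, against -0.017 and -0.031 over all genes tested, and nothing is read from these counts because the genes were chosen with the differences known. In the RKIP comparison Ankrd1 and Tnfrsf12a were called under each of the 15 alternatives run for the whole table, and the count was 2 without RKIP array 1, 3 without control array 1, 2 without control array 2, 5 without RKIP array 2, and 2 with no variance trend. In the GRK-Inh comparison Abra, Rcan1 and Tnfrsf12a were called under each of the same kinds of setting, and the count was 3 with a variance without trend. Calls over all tested genes also fell with 1 array left out and with no variance trend. With no trend they were 297 in RKIP and 731 in GRK-Inh hearts, against 1219 and 1477 in the main fit.

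The genes around the 8 were read from fixed lists. As background for the list counts, 5.32% of all tested genes were called higher and 5.51% lower in RKIP hearts, and 5.86% and 7.27% in GRK-Inh hearts. Of 15 tested genes of actin-to-SRF signalling (MRTF cofactors, LIM kinases and actin-binding relatives among them), 0 rose and 1 fell in RKIP hearts, and 0 rose and 2 fell in GRK-Inh hearts, with list medians of -0.076 and -0.059. The list also holds Elk1, Elk3 and Elk4. Elk3, which encodes a partner of SRF, fell in both lines (-0.61 ± 0.11, adjusted p = 0.00528, and -0.46 ± 0.11, adjusted p = 0.0188). It was the only gene of the list called in RKIP hearts. No MRTF cofactor, LIM kinase or actin-binding gene of the list was called there. Myocd, the gene of the SRF cofactor myocardin, fell in GRK-Inh hearts from 1739 ± 44.3 to 1359 ± 0.686 (-0.34 ± 0.058, adjusted p = 0.00287). The actin-binding gene Ablim1 was lower in RKIP than in GRK-Inh hearts (-0.21 ± 0.043, adjusted p = 0.0135). At an unadjusted p under 0.05 the list gave 0 higher and 3 lower in RKIP hearts, and 1 higher and 3 lower in GRK-Inh hearts.

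Target genes of SRF moved in both directions. Of 20 tested, 3 rose and 6 fell in RKIP hearts, and 5 rose and 1 fell in GRK-Inh hearts, with list medians of -0.14 and 0.063. In RKIP hearts Acta1, Ccn1 and Mcl1 rose, and Acta2, Actc1, Tagln, Myl9, Fhl2 and Egr1 fell. In GRK-Inh hearts Fos, Egr1, Ccn1, Ier2 and Acta1 rose, and Acta2 fell. Acta1 was thus the only actin gene of the list that rose in GRK-Inh hearts. The skeletal actin gene Acta1 rose in both lines, by 1.28 ± 0.057 in RKIP (adjusted p = 5.0e-07) and by 0.56 ± 0.057 in GRK-Inh hearts (adjusted p = 0.000113), and like Ankrd1 it was higher in RKIP than in GRK-Inh hearts (0.72 ± 0.057, adjusted p = 2.9e-05). The immediate early gene Egr1 went the other way, from 1012 ± 1.20 in control to 457 ± 32.3 in RKIP and 2900.4 ± 212 in GRK-Inh hearts (log2 differences -1.07 ± 0.076 and 1.47 ± 0.076, adjusted p = 1.3e-05 and 7.3e-07). Fos rose in GRK-Inh hearts from 90.6 to 859 (2.70 ± 0.15, adjusted p = 1.6e-06) and was at 50.9 in RKIP hearts, a difference that did not pass (adjusted p = 0.0781). Ccn1, a matricellular gene, rose by 0.52 ± 0.11 and 0.96 ± 0.11 (adjusted p = 0.0127 and 0.000252). The smooth muscle actin gene Acta2 fell in both lines, with log2 differences of -0.50 ± 0.047 in RKIP and -0.19 ± 0.047 in GRK-Inh hearts (adjusted p = 7.9e-05 and 0.023). The list of 8 smooth muscle markers shares Acta2, Tagln and Cnn1 with these targets. Their summed signal was 30143 to 31530 in control, 26985 to 27230 in RKIP and 26722 to 27271 in GRK-Inh hearts. Rgs5 gave the largest part of it, with means of 16002, 13932 and 13793 in the same order. In RKIP hearts 1 marker rose, Des (0.20 ± 0.052, adjusted p = 0.0322), and 4 fell. Des had mean signals of 5660 in control, 6517 in RKIP and 5059 in GRK-Inh hearts, against 590, 414 and 468 for the marker Myh11. Which cells of the whole heart gave the Des signal was not tested. In GRK-Inh hearts 0 rose and 2 fell.

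Partners of titin and the Z-disc gave 4 genes that rose and 2 that fell of 15 in RKIP hearts, and 4 that rose and 1 that fell in GRK-Inh hearts, with list medians of -0.031 and -0.069. Beside Ankrd23, the chaperone regulator gene Bag3 rose in both, by 0.34 ± 0.056 (adjusted p = 0.00337) and 0.75 ± 0.056 (adjusted p = 1.1e-05). Xirp1, the gene of an actin-binding protein of the intercalated disc, rose in GRK-Inh hearts (0.74 ± 0.081, adjusted p = 0.000167) and was lower in RKIP than in GRK-Inh hearts (-0.50 ± 0.081, adjusted p = 0.00347). Tcap, which caps titin at the Z-disc, fell in GRK-Inh hearts from 15539 ± 162 to 11163 ± 274 (-0.48 ± 0.036, adjusted p = 1.2e-05). The ubiquitin ligase gene Trim63 rose in RKIP hearts (0.40 ± 0.075, adjusted p = 0.0068).

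Few calcineurin and NFAT genes were called, near the shares over all tested genes. At an unadjusted p under 0.05, 1 was higher and 0 lower in RKIP hearts, and 2 were higher and 3 lower in GRK-Inh hearts. Of 17 tested, 1 rose and 0 fell in RKIP hearts, and 0 rose and 1 fell in GRK-Inh hearts, with list medians of 0.0043 and -0.092. Rcan2, a paralog of Rcan1, rose in RKIP hearts (0.16 ± 0.036, adjusted p = 0.0171), and the transcription factor gene Mef2c fell in GRK-Inh hearts (-0.29 ± 0.070, adjusted p = 0.0182). Of 13 tested genes of TWEAK receptor and NF-kB signalling, 0 rose and 1 fell in each line: the inhibitor gene Nfkbia in RKIP hearts (-0.19 ± 0.047, adjusted p = 0.0255) and Birc3 in GRK-Inh hearts (-0.46 ± 0.13, adjusted p = 0.0386). The list medians were 0.087 and -0.075. Of the 18 genes of this list 14 had a probe set with their single symbol. The TWEAK gene Tnfsf12 had none, nor had Traf3, Nfkb1 and Chuk.

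Genes of the YAP and TEAD route gave 2 that rose and 2 that fell of 16 in RKIP hearts, and 3 that rose and 2 that fell in GRK-Inh hearts, with list medians of -0.082 and 0.076. Their target Ccn2 fell in RKIP hearts and rose in GRK-Inh hearts, from a control mean of 3399.6 ± 5.67 to 1873 ± 38.9 and 7551 ± 176 (log2 differences -0.84 ± 0.047 and 1.14 ± 0.047, adjusted p = 1.7e-06 and 1.3e-07). Ccn1, given above, is also in this list. Ankrd1, whose promoter window holds the 2 TEAD elements, rose in both lines, as did Ccn1, while Ccn2 rose in GRK-Inh hearts and fell in RKIP hearts. The windows of Ccn1 and Ccn2 are not given here, and a link between the elements and these changes was not tested. Amot, the gene of a YAP-binding protein, rose in both lines (0.81 ± 0.13 and 0.59 ± 0.13, adjusted p = 0.00286 and 0.0123).

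**Figure D4:**
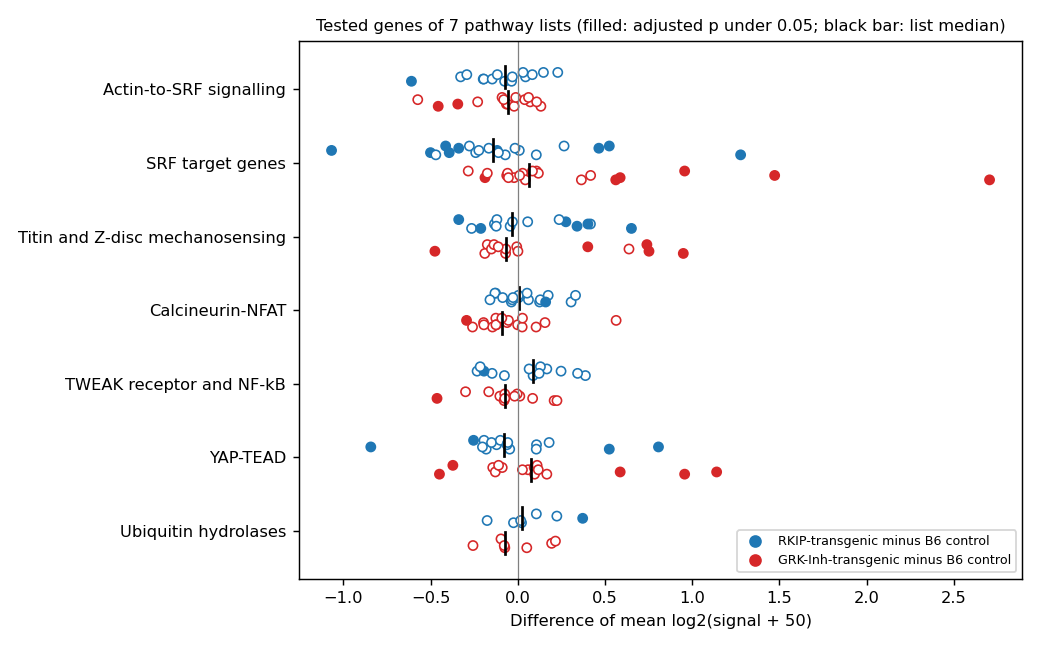
Difference of mean log2(signal + 50) from control (x axis) for each tested gene of 7 lists, blue for RKIP and red for GRK-Inh hearts, filled where the adjusted p was under 0.05, with black bars at list medians. The medians lie between -0.14 and 0.087, and Fos in GRK-Inh hearts, at 2.70, lies far right among the SRF targets.

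For the 3 members whose log2 level ranged over at least 1 across the arrays, the most similar genes were found by the root mean square difference between profiles over the 6 arrays, each centred on its own mean. This measure depends on the size of the changes, so its values are not comparable between members. Rcan1, with the smallest log2 range (1.33, against 2.27 for Tnfrsf12a and 2.51 for Abra), also had the smallest values. Its nearest genes were the stress gene Ddit4 (0.100 on the log2 scale), the chaperone gene Hsp90aa1 (0.106) and the deubiquitinase gene Otud1 (0.136). Hsp90aa1 had mean signals of 3269 in control, 4051 in RKIP and 8275 in GRK-Inh hearts. Next to Tnfrsf12a stood the protease inhibitor gene Timp4 (0.199), the receptor gene Tlr4 (0.321) and the nuclear receptor gene Nr4a3 (0.323). Timp4 had mean signals of 807, 1178 and 2689 in the same order. Abra had the transcription factor gene Zbtb16 (0.258), Nr4a3 (0.297) and the heat shock gene Hspa1a (0.319) as its nearest, with Hspa1a not separable from its near-identical copy Hspa1b. Zbtb16 had mean signals of 660 in control, 701 in RKIP and 2384 in GRK-Inh hearts.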

How the data were processed

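RNA of 6 heart samples was measured on arrays. The authors deposited a linear intensity (signal) per probe set, made with GCOS per the submitters' processing notes, with no version given; the 2% trimmed mean is 300.002 on each array. Groups and replicate numbers came from the sample titles, and no array was left out. The log2 of signal plus 50 was analysed. The brightest probe set stood for each of 18193 genes, and 11254 genes at or above the median level (6.65 on the log2 scale, a signal of 50.2) were tested in 1 model over the 6 arrays (R 4.3.3, limma 3.58.1, variance with trend, 3 residual and 7.60 prior degrees of freedom), two-sided, with Benjamini-Hochberg adjustment over all tested genes and a threshold of 0.05. The procedure was tested on simulated data. The number of arrays limits the precision, with a median SE of 0.115.

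The members, lists and tests were chosen with earlier results of these data known, so adjusted p-values describe the fit and are not independent support. From each list, up to 4 called genes of largest change per comparison, or up to 2 of highest signal where none was called, could be named, and for each member with a log2 range of at least 1 the 3 nearest profiles. Gene symbols were updated by gene ID, which matched RefSeq for 34754 of 35890 annotated probe sets. Genes the arrays do not name were not analysed here. Alternatives were quantile normalization, a median shift, offsets of 16 and 200, filters at none and at the 75th percentile, each probe set singly, other variance models, only the compared arrays, the replicate block, each array left out, and, added after seeing the data, the other probe set. Figures were drawn with matplotlib 3.10.9.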

Additional observations from a re-analysis of the deposited data

How the results depend on the processing

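Of 324 values of the 7 tested members under alternatives, 295 kept direction and side of the threshold, 22 lost the call, 1 gained it and 6 changed sign, and 19 of the 22 lost calls were Abra, Rcan1 and Fhl1 in RKIP against control hearts. The sign changes were of Srf and Uchl1, which were not called: with 1 array left out, Srf in RKIP against control ranged from -0.16 to 0.19 (-0.017 without RKIP array 1), and Uchl1 from -0.19 to 0.14 in that comparison, from -0.23 to 0.099 in GRK-Inh against control (0.069 without GRK-Inh array 2) and from -0.091 to 0.17 between the lines. Counts over all genes were 1219, 1477 and 993 in RKIP against control, GRK-Inh against control and RKIP against GRK-Inh hearts. They were 297, 731 and 255 with a variance without trend, and the cause was not tested. With 1 array left out, and so fewer samples, they were 619 to 743, 902 to 918 and 472 to 543; the lone array was assumed to vary like the other groups. Without a filter, with 18193 genes to adjust over, the last was 617. Quantile normalization and a median shift moved the median of all genes by at most 0.045; among 148 members and list genes, none of the 38, 37 and 31 called in the 3 comparisons changed sign, and the calls lost were 1, 3 and 1 with the first and 2, 4 and 3 with the second. With the replicate block they were 1150, 1434 and 905, and no member's call changed. Deviations of same-numbered arrays correlated at -0.035 to 0.026 across genes. That shows no large effect shared by arrays of the same number, and it cannot tell whether the samples were paired. Ankrd2 had no main value, and without a filter its differences from control were -0.18 and -0.16 (adjusted p = 0.663 and 0.700).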

Other observations

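Snap25, a gene of the nerve terminal, was listed at signals of 0.463 to 0.865 on the RKIP and control arrays and at 64.3 and 76.3 on the GRK-Inh arrays. Nefl, a neurofilament gene, gave 74.5 and 70.1 on the GRK-Inh arrays, 9.57 and 18.0 on the RKIP arrays and 22.0 and 1.25 on the control arrays. Both were below the filter over the 6 arrays and were not tested, and both were chosen after their values were seen. Over the 11 neuron markers with a probe set, both GRK-Inh arrays were above the other 4 arrays for 3 genes (Snap25, Nefl and Stmn2) and below them for 0, and the arrays overlapped for 8. Chga, another gene of this list, gave 8.49 and 7.80 on the GRK-Inh arrays, 17.8 and 30.3 on the RKIP arrays and 36.4 and 2.79 on the control arrays.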
